A study of Mus musculus with 6 samples.

Results

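The genes described here encode the subunits of the respiratory chain and of ATP synthase, from the nuclear and the mitochondrial genome. They were chosen by symbol from the protein-coding rows of the count tables: symbols that begin with Nduf followed by a, b, c, s or v and a number, Sdha to Sdhd, and symbols that begin with Uqcr, with Cox4 to Cox8, with Atp5 or with mt-Nd, mt-Co, mt-Cyt or mt-At. The rule took 98 of the 31130 rows, 85 of them nuclear and 13 mitochondrial. By complex, 36 nuclear and 7 mitochondrial rows belong to complex I, 4 nuclear rows to complex II, 8 and 1 to complex III, 18 and 3 to complex IV and 17 and 2 to complex V. The remaining 2 nuclear rows are Cox5b-ps, named as a pseudogene, and Ndufa4l2, a relative of Ndufa4 that is not an established subunit. Subunits with other kinds of symbol, such as Cyc1 and Ndufab1, are not covered by the rule.

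The comparison asked how lung tumors that grew in a lung injured by bleomycin differ in RNA from tumors that grew without that injury. Tumor tissue of the lung was taken from 3 mice of the LC model (lung cancer alone) and 3 mice of the IP + LC model (lung cancer with interstitial pneumonia), all labelled WT. The mice of both groups were female, 6 to 8 weeks old, and received 500000 cells of Lewis lung carcinoma, an established mouse lung cancer line, in the left lung on day 14, and tumors were harvested on day 21. On day 0 the IP + LC mice were given bleomycin into the airway at 2.0 mg/kg body weight, a drug whose lung damage is followed by scarring, and the LC mice had saline. Each library is a piece of whole tumor from 1 injected line, so fewer cells of a type and less RNA per cell cannot be told apart. The p-values measure the spread between these 6 libraries.

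Complexes I and II take electrons from NADH and succinate, ubiquinone carries them to complex III, cytochrome c carries them on to complex IV, and complex IV passes them to oxygen. Complexes I, III and IV pump protons across the inner membrane, and ATP synthase, called complex V, lets them flow back through a ring of c subunits that turns the F1 head where ATP is made. The mitochondrial DNA encodes core membrane subunits of complexes I, III, IV and V, whereas all of complex II and most other subunits are encoded in the nucleus, so that the complexes are assembled from products of both genomes. Several subunits of complex IV exist in a common form and in forms restricted to muscle, testis or lung.

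Promoters of nuclear subunits often hold sites for NRF1 and for GABPA, also called NRF-2, factors known for the control of respiratory genes. RefSeq promoters of GRCm38.p6 were matched by symbol or synonym for 69 of the 85 nuclear rows, and the 270 bases from 250 before the start of transcription to 20 after it were searched on both strands. The letters GCGCNTGCG, from the core of NRF1 sites, were present in the promoters of 21 of the 69 genes (30.4%), against 6.55% of all 27025 genes with a promoter. The letters CCGGAAG, the core of sites for GABPA and other ETS factors, were present for 16 of the 69 (23.2%), against 9.10% of all genes. None of the 4 tissue- or state-restricted forms with a matched promoter held either. Promoters of common and restricted subunits of complex IV are shown because the restricted forms had the largest falls in IP + LC tumors and most common forms did not pass the test. Capitals mark matches to either motif on either strand, where matches to the nearly palindromic NRF1 letters may overlap. The windows are Cox6a1 at chr5:115348939-115349208 on the minus strand, Cox8a at chr19:7217597-7217866 on the minus strand, Cox8b at chr7:140900427-140900696 on the minus strand, Cox7a2 at chr9:79759834-79760103 on the minus strand and Cox7a1 at chr7:30183921-30184190 on the plus strand.
Cox6a1: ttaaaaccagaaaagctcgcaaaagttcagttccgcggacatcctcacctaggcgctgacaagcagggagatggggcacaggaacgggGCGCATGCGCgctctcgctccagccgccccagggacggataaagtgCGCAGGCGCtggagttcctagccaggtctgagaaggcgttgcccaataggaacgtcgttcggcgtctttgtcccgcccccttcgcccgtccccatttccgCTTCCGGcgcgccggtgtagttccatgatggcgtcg
Cox8a: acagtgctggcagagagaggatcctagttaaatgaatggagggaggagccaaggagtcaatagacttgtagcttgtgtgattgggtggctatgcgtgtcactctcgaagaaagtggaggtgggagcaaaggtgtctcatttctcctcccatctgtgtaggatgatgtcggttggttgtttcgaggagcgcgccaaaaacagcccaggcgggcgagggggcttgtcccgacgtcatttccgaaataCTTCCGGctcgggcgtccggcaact
Cox8b: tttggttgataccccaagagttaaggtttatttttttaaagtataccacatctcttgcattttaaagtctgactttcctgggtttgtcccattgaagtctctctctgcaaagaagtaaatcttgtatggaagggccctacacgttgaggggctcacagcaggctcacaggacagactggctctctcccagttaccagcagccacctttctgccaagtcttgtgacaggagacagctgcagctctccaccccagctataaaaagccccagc
Cox7a2: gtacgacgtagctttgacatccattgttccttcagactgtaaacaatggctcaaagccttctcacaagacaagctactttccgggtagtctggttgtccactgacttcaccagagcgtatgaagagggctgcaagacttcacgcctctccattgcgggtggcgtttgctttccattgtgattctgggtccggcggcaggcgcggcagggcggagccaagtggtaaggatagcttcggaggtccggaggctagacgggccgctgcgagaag
Cox7a1: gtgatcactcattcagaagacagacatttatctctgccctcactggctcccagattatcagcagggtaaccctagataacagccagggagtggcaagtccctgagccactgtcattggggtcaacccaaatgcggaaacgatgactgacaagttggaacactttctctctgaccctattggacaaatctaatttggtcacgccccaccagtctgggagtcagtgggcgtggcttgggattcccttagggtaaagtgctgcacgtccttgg
The Cox6a1 window, for a common form, held matches to both motifs, and that of Cox8a held 1 match to CCGGAAG. Cox8b, Cox7a1 and the common form Cox7a2 had no match in these letters. A match is a run of letters and was not tested for binding.

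The libraries held 592733 UMIs in LC replicate 1 and 1336919 to 1631066 in the other 5. A UMI (unique molecular identifier) marks 1 captured RNA molecule, and values are given as UMIs or as CPM, counts relative to library size after TMM scaling. LC replicate 1 also stood apart in composition: it held 844 UMIs of the mitochondrial ribosomal RNA mt-Rnr2, whereas the other 5 libraries held 26259 to 59221, and the biological coefficient of variation within the LC group was 33.2% with it and 13.7% without it, beside 10.9% in the IP + LC group. Results are therefore given with and without it. By edgeR's quasi-likelihood test at an adjusted p-value below 0.1, 1885 of 11240 tested genes were called higher (16.8%) and 2203 lower (19.6%) in IP + LC tumors, and with scaling by library size alone, 2520 were called higher and 1800 lower. Without LC replicate 1, 28.3% of 11748 tested genes were called higher and 28.7% lower. The IP + LC values lay all above the LC values for 21.6% of the tested genes and all below them for 21.5%. Lung and tumor markers moved with the groups: all 5 endothelial markers, the 4 tested markers of ciliated epithelium and 4 of 5 markers of type 2 alveolar cells were called lower in IP + LC tumors, and 4 of 5 proliferation markers were called higher. The summed CPM of the type 2 markers, which include surfactant genes, was 33785 to 41892 in the LC and 5826 to 10817 in the IP + LC tumors. The summed CPM of the proliferation markers was 467 in LC replicate 1, 103 and 97.5 in the other LC tumors and 832 to 973 in the IP + LC tumors. The part of these shifts in the results for the respiratory chain was not tested.

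Most of the mRNAs of the mitochondrial genome were called lower in IP + LC tumors. Of the 13, 10 had enough UMIs to be tested. Of these, 8 were called lower and 0 higher, beside 19.6% and 16.8% of all tested genes. The median log2 fold change (IP + LC over LC) was -0.95, beside 0.02 over all tested genes. The IP + LC tumors lay below all LC tumors for the same 8, read beside the 21.5% of all tested genes given above. The mRNAs of mt-Nd3, mt-Nd4l and mt-Atp8 were not tested, because they had at most 15 UMIs in any library. The 13 mRNAs together took 3.61%, 5.13% and 4.43% of all UMIs in the LC tumors and 2.89%, 2.41% and 3.10% in the IP + LC tumors. Every IP + LC tumor was thus below every LC tumor, and LC replicate 1 was the lowest of its group.

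**Figure D1:**
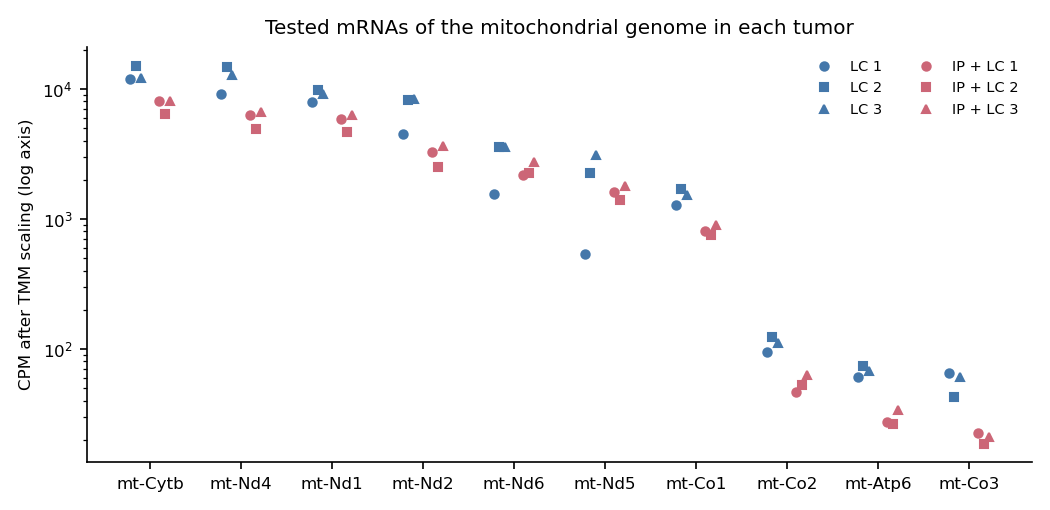
CPM of the 10 tested mitochondrial mRNAs in each tumor, on a log axis, with the LC tumors in blue to the left and the IP + LC tumors in red to the right of each gene. The red points lie below the blue ones for 8 genes, and LC replicate 1 is the lowest tumor for mt-Nd5 and mt-Nd6.

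Among the complex I mRNAs, mt-Nd2, a core subunit of the membrane arm, had 4463, 8219 and 8332 CPM in LC and 3290, 2521 and 3606 CPM in IP + LC tumors. Its log2 fold change was -1.16 ± 0.31 (SE, adjusted p = 0.0244). The groups did not overlap, and LC replicate 1 was closest to the IP + LC tumors. The proton-pumping subunit mt-Nd4 stood at 9047, 14624 and 12882 CPM in LC and 6300, 4880 and 6576 CPM in IP + LC tumors, a log2 fold change of -1.04 ± 0.29 (adjusted p = 0.0272). For mt-Nd1, which lies next to the quinone site, the values were 7923, 9846 and 9148 CPM in LC and 5866, 4689 and 6330 CPM in IP + LC tumors, with a log2 fold change of -0.67 ± 0.25 (adjusted p = 0.0782). The mt-Nd1 call was lost with any library other than LC replicate 1 left out, and those of mt-Nd2 and mt-Nd4 without IP + LC replicate 2, where the adjusted p-values were 0.113 and 0.116.

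The complex I mRNAs mt-Nd5 and mt-Nd6 did not pass the test with all 6 libraries. The antiporter-like subunit mt-Nd5 had 532, 2260 and 3085 CPM in LC and 1605, 1386 and 1789 CPM in IP + LC tumors (log2 fold change -0.30 ± 0.51, adjusted p = 0.697). Only LC replicate 1 was below the IP + LC tumors. The small membrane subunit mt-Nd6, the only one of the 13 encoded on the other strand, had 1557, 3539 and 3550 CPM in LC and 2155, 2242 and 2759 CPM in IP + LC tumors (log2 fold change -0.27 ± 0.33, adjusted p = 0.571). Without LC replicate 1, the log2 fold changes were -0.73 for mt-Nd5 (adjusted p = 0.00111) and -0.56 for mt-Nd6 (adjusted p = 0.00392), and all 10 tested mRNAs were called lower, beside the 28.7% of all tested genes. As a share of the UMIs of the 13 mRNAs, mt-Nd6 took 4.22%, 6.38% and 6.98% in LC and 7.64%, 9.78% and 9.16% in IP + LC tumors, without overlap. The 2 genes lie at 11742 to 13565 on the plus strand (mt-Nd5) and 13552 to 14070 on the minus strand (mt-Nd6) of the mitochondrial genome and overlap at their ends, and whether the counting used the strand is not given in the sources used here.

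Cytochrome b of complex III, mt-Cytb, had 11859, 15015 and 12086 CPM in LC and 8074, 6350 and 8059 CPM in IP + LC tumors, with a log2 fold change of -0.79 ± 0.26 (adjusted p = 0.0512). The call of mt-Cytb was lost without LC replicate 2 and without any IP + LC library, with adjusted p-values of up to 0.176. The catalytic subunit of complex IV, mt-Co1, had 1279, 1695 and 1532 CPM in LC and 809, 752 and 890 CPM in IP + LC tumors (log2 fold change -0.88 ± 0.21, adjusted p = 0.0155). Its partner mt-Co2, which takes electrons from cytochrome c, had 94.7, 124 and 111 CPM in LC and 46.4, 53.1 and 63.2 CPM in IP + LC tumors (log2 fold change -1.03 ± 0.21, adjusted p = 0.00861). These 3 mRNAs had no overlap between the groups.

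The third core subunit of complex IV, mt-Co3, showed the largest fall of the tested mitochondrial mRNAs, from 65.4, 42.3 and 60.2 CPM in LC to 22.5, 18.7 and 21.1 CPM in IP + LC tumors (log2 fold change -1.41 ± 0.24, adjusted p = 0.00383). The proton channel subunit of ATP synthase, mt-Atp6, fell from 60.3, 73.6 and 67.8 CPM to 27.6, 26.3 and 34.1 CPM (log2 fold change -1.21 ± 0.21, adjusted p = 0.00408). Both kept their call whichever library was left out. Near-identical copies in transcripts of other genes (at least 81 nucleotides at 95% identity) covered 99.6% to 100% of mt-Co1, mt-Co2, mt-Co3 and mt-Atp6 and 49.1% to 63.6% of mt-Nd2, mt-Nd4 and mt-Nd5, so that reads of these mRNAs could be shared with or lost to the copies. For mt-Nd1, mt-Cytb and mt-Nd6 no such copy was found.

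The nuclear subunits took 2.12%, 1.42% and 1.31% of all UMIs in the LC tumors and 1.43%, 1.41% and 1.47% in the IP + LC tumors. The groups overlapped, and LC replicate 1 stood above all others. The difference of the means, IP + LC minus LC, was -0.18 percentage points with all libraries and turned to 0.07 without LC replicate 1. The direction depended on the scaling: the summed CPM of the nuclear members, after TMM, was 21657, 15320 and 15064 in LC and 13915, 13436 and 14244 in IP + LC tumors, lower without overlap and also with LC replicate 1 left out. The ratio of the summed mitochondrial to the summed nuclear UMIs was 1.70, 3.62 and 3.38 in the LC and 2.03, 1.71 and 2.12 in the IP + LC tumors. LC replicates 2 and 3 were above all IP + LC tumors, and LC replicate 1 was the lowest of the 6.

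One by one, 83 of the 85 nuclear rows were tested, and Cox7b2 and Cox5b-ps had too few UMIs. None was called higher, 25 were called lower (30.1%, beside 19.6% of all tested genes) and 58 did not pass, while 16.8% of all tested genes were called higher. The median log2 fold change of the 83 was -0.39. Without the 6 tested tissue- or state-restricted forms, 19 of 77 were called lower (24.7%). The IP + LC tumors lay below all LC tumors for 39 of the 83 and above them for 1, Atp5b, beside 21.5% and 21.6% of all tested genes. Without LC replicate 1, 7 were called higher and 32 lower, shares to be read beside 28.3% and 28.7% of all tested genes, and the median was -0.22. The count called lower was 13, 11 and 15 without IP + LC replicates 1, 2 and 3, where 13.4%, 11.6% and 15.5% of all tested genes were called lower. Read against the 83 members, these counts lie much closer to the share of all tested genes than the 25 called with all libraries.

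**Figure D2:**
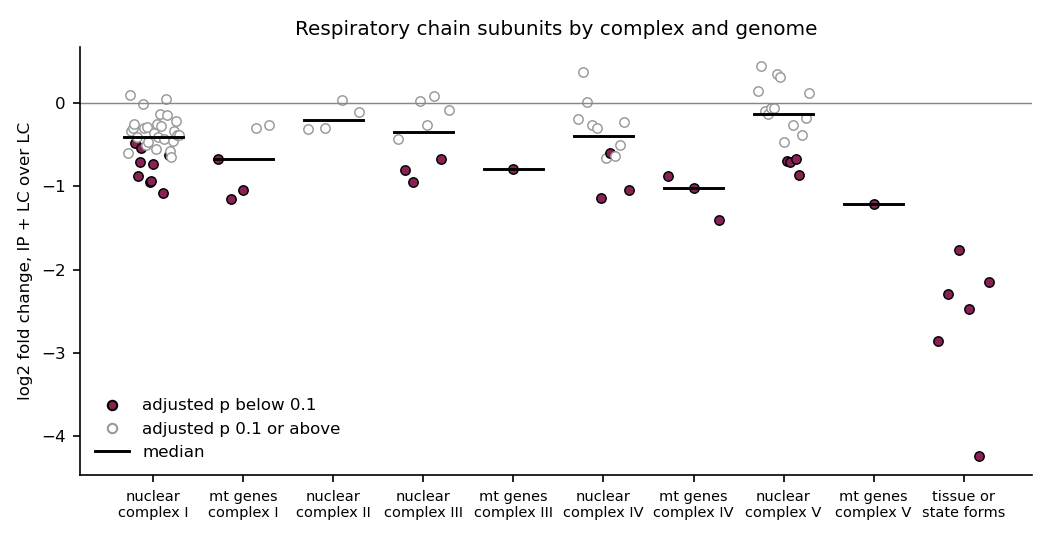
Log2 fold change (IP + LC over LC) of each tested subunit, by complex and genome, with the tissue- or state-restricted forms apart. Filled points passed an adjusted p-value of 0.1, open points did not, and bars are medians, which lie at -0.41 for nuclear complex I and -0.21 for complex II. No median is drawn for the restricted forms, most of which were tested because of their level in the LC tumors.

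In complex I, 9 of the 29 tested supernumerary subunits, which surround the catalytic core, were called lower, beside the 19.6% of all tested genes. None of the 7 nuclear core subunits was called, although 6 of them had a negative log2 fold change and 3 were called lower without LC replicate 1. The median log2 fold changes were -0.47 and -0.34, and a difference between the parts was not tested. The 9 were Ndufa2, Ndufa5, Ndufa6, Ndufa7, Ndufb2, Ndufb3, Ndufb4, Ndufc2 and Ndufs4, named after their values were seen. The largest fall among them was that of Ndufc2, a subunit of the membrane arm, from 365, 224 and 254 CPM in LC to 133, 125 and 138 CPM in IP + LC tumors (log2 fold change -1.08 ± 0.23, adjusted p = 0.00993). Its groups did not overlap, and LC replicate 1 was the highest tumor. Ndufc2, Ndufb2 and Ndufb3 kept their call in every alternative run, and the other 6 lost it in at least 1. Ndufs4 moved from -0.62 to -0.37 without LC replicate 1 (adjusted p = 0.0609).

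The core subunits of complex I named here had log2 fold changes from -0.46 to -0.15. The NADH-binding flavoprotein Ndufv1 had 136, 107 and 102 CPM in LC and 97.2, 88.7 and 107 CPM in IP + LC tumors (-0.23 ± 0.20, adjusted p = 0.442). The iron-sulfur subunits Ndufs1, Ndufs7, Ndufs8 and Ndufv2 had log2 fold changes of -0.43, -0.46, -0.34 and -0.39, with the IP + LC tumors below the LC tumors for all 4 and adjusted p-values of 0.105 to 0.231. Without LC replicate 1, Ndufs1, Ndufs7 and Ndufv2 passed the limit (adjusted p = 0.0595, 0.0194 and 0.0343). Ndufs3, a further core subunit, stood at -0.15 ± 0.24 (adjusted p = 0.664).

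Complex II, which has no mitochondrially encoded subunit, had no call in either direction. The log2 fold changes were -0.31 ± 0.19 for the flavoprotein Sdha, -0.31 ± 0.23 for the iron-sulfur subunit Sdhb, 0.03 ± 0.27 for the membrane anchor Sdhc and -0.11 ± 0.20 for the other anchor, Sdhd, with adjusted p-values of 0.253 to 0.953. Without LC replicate 1 they were -0.28, -0.08, 0.31 and -0.003 in the same order, with adjusted p-values of 0.125 to 0.989. Sdha had 196, 204 and 167 CPM in LC and 158, 142 and 156 CPM in IP + LC tumors, the only complex II gene without overlap. The summed CPM of the 4 genes was 897, 715 and 595 in LC and 671, 619 and 660 in IP + LC tumors, within the LC range.

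In complex III, 3 of 8 nuclear subunits were called lower (37.5%, beside 19.6% of all tested genes), the small subunits Uqcrb, Uqcr11 and Uqcrh, and the small subunits are named after their values were seen. Their log2 fold changes were -0.96, -0.81 and -0.68 (adjusted p = 0.0413, 0.0296 and 0.0357), without overlap between the groups. All 3 calls were lost without IP + LC replicate 2, with adjusted p-values of up to 0.182 over the alternatives, and that of Uqcrh also after removal of a trend with length (adjusted p = 0.149). Uqcrb stood at -0.55 without LC replicate 1 (adjusted p = 0.00524). The other small subunits, Uqcr10 and Uqcrq, did not pass, at -0.43 ± 0.26 and -0.09 ± 0.27 (adjusted p = 0.251 and 0.833), and Uqcrq turned to 0.25 without LC replicate 1 (adjusted p = 0.131). Nor did the larger subunits pass: the Rieske iron-sulfur protein Uqcrfs1 had 201, 193 and 181 CPM in LC and 220, 210 and 180 CPM in IP + LC tumors (log2 fold change 0.09 ± 0.19, adjusted p = 0.769). The core proteins Uqcrc1 and Uqcrc2 had log2 fold changes of 0.02 ± 0.21 and -0.26 ± 0.24 (adjusted p = 0.952 and 0.441). Without LC replicate 1, Uqcrc2 passed the limit at -0.42 (adjusted p = 0.0503).

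The largest changes among the nuclear members were in tissue- or state-restricted forms, of which 5 tested forms belong to complex IV and the sixth is Ndufa4l2. Each was called lower, without overlap between the groups, but 5 of the 6 reached the level required for testing in all LC tumors and not in all IP + LC tumors, so that their count says nothing about such forms in general. Cox6a2 alone reached it in all 6 tumors. Cox4i2, a form of subunit 4 known from the lung and induced by low oxygen (chromosome 2, 152754173 to 152765037, plus strand), had 33, 81 and 57 UMIs, or 56.8, 63.5 and 48.3 CPM, in LC and 9, 9 and 16 UMIs, or 6.5, 5.3 and 11.6 CPM, in IP + LC tumors. It was 7.25-fold lower (log2 fold change -2.86 ± 0.31, adjusted p = 0.000859). The common form Cox4i1 had 804, 653 and 662 CPM in LC and 632, 598 and 623 CPM in IP + LC tumors (-0.19 ± 0.19, adjusted p = 0.492). Cox4i2 thus made up 6.60%, 8.86% and 6.80% of the UMIs of the pair in LC and 1.02%, 0.87% and 1.83% in IP + LC tumors.

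The muscle forms are Cox6a2, Cox7a1 and Cox8b. Cox7a1 and Cox8b were tested only because of their LC level, so their direction is not read as support for that of Cox6a2. Cox6a2, the heart and skeletal muscle form of subunit 6a (chromosome 7, 128205435 to 128206387, minus strand), had 60.3, 99.5 and 68.6 CPM in LC and 18.9, 9.9 and 18.9 CPM in IP + LC tumors (log2 fold change -2.29 ± 0.31, adjusted p = 0.00157). Cox7a1, the muscle form of subunit 7a (chromosome 7, 30184144 to 30186078, plus strand), had 24.1, 24.3 and 20.3 CPM in LC and 4.4, 3.5 and 4.4 CPM in IP + LC tumors (-2.47 ± 0.32, adjusted p = 0.00137). Cox8b, the form of subunit 8 found in muscle and brown fat (chromosome 7, 140898945 to 140900446, minus strand), had 5, 27 and 13 UMIs in LC and 0, 0 and 3 UMIs in IP + LC tumors. Set against 3 UMIs in each IP + LC library, the mean CPM of Cox8b was at least 6.68-fold lower in IP + LC tumors (adjusted p = 0.00602).

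The other restricted forms, Cox6b2 and Ndufa4l2, reached the level required for testing in all LC tumors and in 1 IP + LC tumor. Cox6b2, the testis form of subunit 6b, had 13, 25 and 25 UMIs in LC and 8, 8 and 11 in IP + LC tumors (log2 fold change -1.76 ± 0.32, adjusted p = 0.00478). Ndufa4l2, which is induced by low oxygen, had 17, 47 and 35 UMIs in LC and 9, 11 and 12 in IP + LC tumors (-2.15 ± 0.28, adjusted p = 0.00142). All 6 kept their call whichever library was left out, although 5 of them were tested because of their LC level. The testis form Cox7b2 had at most 3 UMIs in any library, while Cox8c has no row in the tables.

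Markers of other cell types were read beside these forms. Of 13 cardiac muscle markers, 7 were tested and all 7 were called lower, with a summed CPM of the 13 of 1109 to 2267 in the LC and 166 to 432 in the IP + LC tumors. Of 9 smooth muscle and pericyte markers, 6 were called lower, at a summed CPM of 703 to 1113 and 215 to 295. The defining cardiac marker Myh6 had 12, 183 and 163 UMIs in LC and 30, 23 and 52 UMIs in IP + LC tumors. The ventricular marker Myl2 was at 0 UMIs in all libraries but IP + LC replicate 3, with 2. Of 7 skeletal muscle markers only Ckm was tested, and it was called lower, while Acta1 had at most 1 UMI in any library. Ckm, and Adipoq below, reached the level required for testing in all LC tumors but in only 1 IP + LC tumor. Their calls are thus not read as support for a direction. Among the called cardiac, smooth muscle and pericyte markers, Sln and Higd1b reached that level in 2 IP + LC tumors. Of the 4 brown fat markers found, 1 was tested, Adipoq, a hormone gene of fat cells, which had 13, 90 and 93 UMIs in LC and 8, 3 and 13 UMIs in IP + LC tumors (log2 fold change -3.44 ± 0.56, adjusted p = 0.00312). The summed CPM of the 4 was 29.3 to 108 in the LC and 4.1 to 11.6 in the IP + LC tumors, and the defining marker Ucp1 had 11 UMIs in LC replicate 3 and 0 elsewhere. The part of muscle, fat and vessel cells in the fall of the restricted forms was not tested.

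Of the 6 common forms of complex IV with a restricted relative, Ndufa4 was called lower and 5 were not called. Cox6a1, Cox6b1, Cox7a2 and Cox8a had log2 fold changes of -0.26, -0.30, -0.66 and -0.24, with adjusted p-values of 0.126 to 0.486. Without LC replicate 1 they stood at -0.02, 0.01, -0.25 and 0.03, with adjusted p-values of 0.141 to 0.946. Cox7a2, the one of these with no overlap between the groups, had 443, 212 and 233 CPM in LC and 196, 170 and 192 CPM in IP + LC tumors. Cox7a2l, which links complexes III and IV in supercomplexes, had 313, 240 and 228 CPM in LC and 161, 168 and 183 CPM in IP + LC tumors (-0.60 ± 0.21, adjusted p = 0.0566). The Cox7a2l call was lost without LC replicate 2 and without any IP + LC library, with adjusted p-values of up to 0.283. The common subunits Cox5a and Cox5b had log2 fold changes of 0.37 ± 0.31 and 0.00 ± 0.24 (adjusted p = 0.407 and 0.992), and Cox5a passed the limit without LC replicate 1 (0.64, adjusted p = 0.0414). Cox6c, Cox7b and Cox7c, also common subunits, are named after their values were seen. Cox6c was the only further call, at -1.15 ± 0.25 (adjusted p = 0.0104), and Cox7b and Cox7c had log2 fold changes of -0.64 ± 0.27 and -0.50 ± 0.29 (adjusted p = 0.114 and 0.222), Cox7b without overlap between the groups. Without LC replicate 1, Cox6c, Cox7b and Cox7c stood at -0.90, -0.29 and -0.11 (adjusted p = 0.000158, 0.0955 and 0.521).

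Ndufa4, once assigned to complex I and now to complex IV, had 627, 427 and 408 CPM in LC and 239, 210 and 254 CPM in IP + LC tumors (log2 fold change -1.05 ± 0.23, adjusted p = 0.0110). AA467197, the mouse gene of the related protein NMES1, known to take the place of Ndufa4 in inflammation, is no member by the rule and was read beside it. It had 26, 22 and 12 UMIs in LC and 144, 313 and 165 UMIs in IP + LC tumors, 6.25-fold higher (log2 fold change 2.64 ± 0.46, adjusted p = 0.00438). Of the UMIs of AA467197 and Ndufa4 together, AA467197 held 6.67%, 3.88% and 2.43% in LC and 30.4%, 46.5% and 32.0% in IP + LC tumors. The groups did not overlap in either gene or in this share, and the genes moved in opposite directions. Macrophage markers were higher for 2 of 5, with a summed CPM of 314 to 673 in the LC and 591 to 667 in the IP + LC tumors, and the part of inflammatory cells was not tested.

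**Figure D3:**
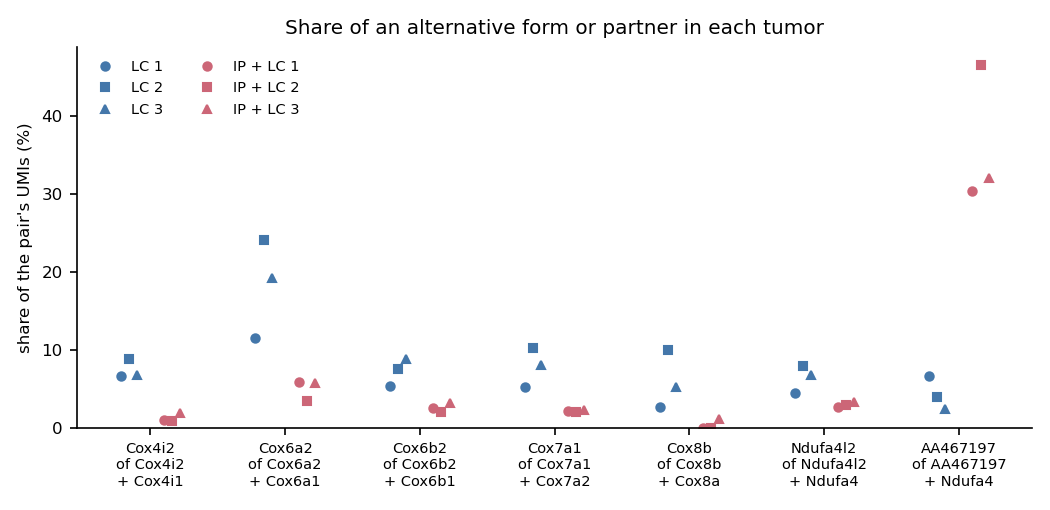
Share of an alternative form in the UMIs of that form and its common relative, in percent, for each tumor, with LC in blue and IP + LC in red. The 6 restricted forms take smaller shares in every IP + LC tumor than in any LC tumor, but 5 of them were tested because of their LC level. AA467197 rises from at most 6.67% to at least 30.4% of its pair with Ndufa4.

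In ATP synthase the log2 fold changes of the nuclear subunits ran from -0.86 to 0.43. None of the 5 F1 chains and none of the 3 genes of the c ring was called, and 3 of 5 supernumerary membrane subunits and 1 of 4 stalk subunits were called lower, or 4 of 17 in all (23.5%, beside 19.6% of all tested genes). The membrane subunits ran from -0.86 to -0.27, below the F1 chains (-0.14 to 0.43) and the c ring (-0.06 to 0.35), while the stalk (-0.70 to 0.11) overlapped all 3, and a difference between the parts was not tested. The catalytic beta chain Atp5b (chromosome 10, 128083273 to 128090391, plus strand) had 632, 561 and 448 CPM in LC and 771, 752 and 691 CPM in IP + LC tumors, the only member with every IP + LC tumor above every LC tumor. Its log2 fold change was 0.43 ± 0.21 (adjusted p = 0.153), and 0.56 without LC replicate 1 (adjusted p = 0.00420). The alpha, gamma, delta and epsilon chains Atp5a1, Atp5c1, Atp5d and Atp5e had log2 fold changes of 0.14, -0.10, -0.14 and -0.06, with adjusted p-values of 0.607 to 0.892.

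The other parts of ATP synthase are named after their values were seen. Atp5g3, which encodes the c subunit, had 847, 513 and 424 CPM in LC and 770, 707 and 723 CPM in IP + LC tumors (log2 fold change 0.31 ± 0.27, adjusted p = 0.434), with LC replicate 1 above and the other LC tumors below the IP + LC group. Without LC replicate 1, Atp5b, Atp5e, Atp5g2, Atp5g3 and the stalk subunit Atp5pb were called higher, 5 of the 7 nuclear members called higher in that comparison. The summed CPM of the 3 c ring genes was 1118, 682 and 586 in LC and 972, 906 and 939 in IP + LC tumors. The members called lower were the membrane subunits Atp5md, Atp5j2 and Atp5l and the stalk subunit Atp5j, with log2 fold changes of -0.86, -0.72, -0.68 and -0.70 (adjusted p = 0.0357, 0.0786, 0.0519 and 0.0291) and no overlap between the groups. All 4 calls were lost when IP + LC replicate 1 or 2 was left out, with adjusted p-values of up to 0.251 over the alternatives, and after removal of a trend with length those of Atp5j2 and Atp5l were lost (adjusted p = 0.102 and 0.224). Atp5j2 stood at -0.38 without LC replicate 1 (adjusted p = 0.0348). Near-identical copies cover 88.2% of Atp5g2, 86.8% of Atp5l and 64.6% of Atp5pb, so their values are uncertain. The same holds for Ndufs3, Uqcrb and Cox7c, named above, with 83.8%, 62.8% and 58.3% covered.

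**Figure D4:**
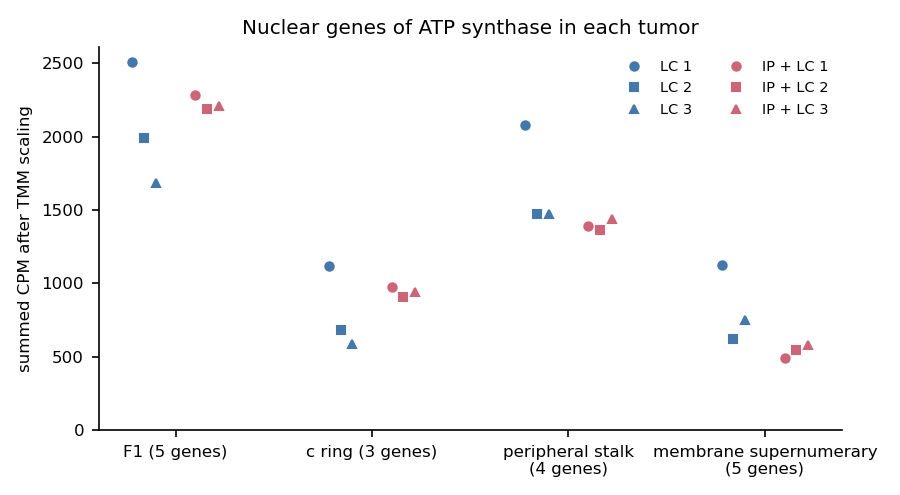
Summed CPM of the nuclear genes of ATP synthase by part in each tumor, with LC in blue and IP + LC in red. LC replicate 1 is the highest tumor in every part. Against LC replicates 2 and 3, the IP + LC tumors are higher for F1 and the c ring and lower for the peripheral stalk and the membrane supernumerary subunits, whereas as shares of all UMIs, without TMM scaling, they are higher for the stalk (0.143% to 0.148% against 0.136% and 0.128%) and overlap for the membrane subunits.

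Most of the nuclear members that fell have short transcripts. Over the 83 nuclear members, log2 fold change and transcript length had a Spearman correlation of 0.38, against 0.07 over all 11240 tested genes, across genes of the same libraries. Of the 51 nuclear members up to 1000 nucleotides, 21 were called lower, beside 28.5% of all tested genes of that length, and of the 32 longer ones, 4 were, beside 18.8%. Over all tested genes, the median log2 fold change was -0.33 for the 146 genes of up to 500 nucleotides and 0.06 for the 8034 of more than 2000. After a trend with length was taken out of every library, 4 nuclear members were called higher and 21 lower, beside 18.6% and 20.7% of all tested genes. The 4 were Atp5b, Atp5g2, Atp5g3 and Cox5a. The 6 restricted forms kept their calls and 7 mitochondrial mRNAs were called lower, with mt-Nd1 lost (adjusted p = 0.132).

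**Figure D5:**
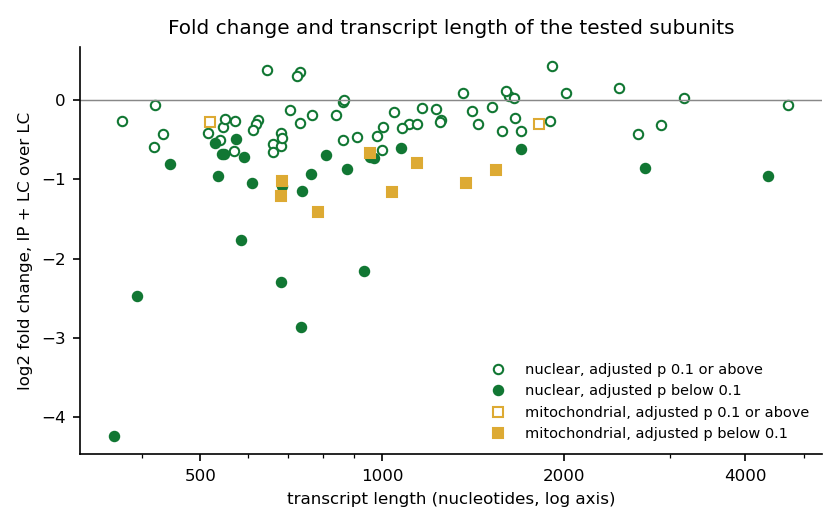
Log2 fold change (IP + LC over LC) against transcript length in nucleotides, on a log axis, for the 83 tested nuclear members (circles) and the 10 tested mitochondrial members (squares). Filled symbols passed an adjusted p-value of 0.1, and 21 of the 25 filled circles lie at 1000 nucleotides or less.

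Genes that build or serve the chain did not share 1 direction, and their counts are read beside the 16.8% of all tested genes called higher and the 19.6% called lower. Among assembly factors, 1 of 18 tested genes for complex I was called higher and 3 lower, 0 of 4 for complex II, 1 of 6 for complex III was called lower, 1 of 18 for complex IV was called higher and 4 lower, and 0 of 5 for complex V. Of 17 genes of the tricarboxylic acid cycle, none was called in either direction, at a median log2 fold change of -0.06. Of 17 genes for ubiquinone, cytochrome c and electron transfer flavoprotein, 1 was called lower, Coq8a, a gene of ubiquinone synthesis, with 8, 24 and 23 UMIs in LC and 5, 7 and 6 UMIs in IP + LC tumors (-2.12 ± 0.33, adjusted p = 0.00269). Mitochondrial ribosomal proteins, which serve the translation of the 13 mitochondrial mRNAs, were called higher for 7 and lower for 4 of 74, at a median of 0.14.

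Genes that copy and transcribe mitochondrial DNA or process its RNA were called higher for 3 (Elac2, Pnpt1 and Tbrg4) and lower for 1 (Polg) of 22. Counts in this paragraph are also read beside the 16.8% of all tested genes called higher and the 19.6% called lower. Tfam, the packaging and transcription factor of mitochondrial DNA, had 32, 53 and 57 UMIs in LC and 70, 96 and 75 in IP + LC tumors (0.17 ± 0.20, adjusted p = 0.555). Among 8 tested regulators of mitochondrial biogenesis, Ppargc1b, Pprc1 and Yy1 were called higher and 0 lower. Ppargc1b, a coactivator of respiratory genes, had 1, 3 and 2 UMIs in LC, at or under the floor of 3, and 11, 15 and 13 UMIs in IP + LC tumors. It was tested only because of its level in the IP + LC tumors, as Coq8a was because of the LC tumors, so that these calls are not read as support for a direction of their lists. Its relative Ppargc1a had 0, 21 and 25 UMIs in LC and 3, 7 and 12 UMIs in IP + LC tumors, with overlap (adjusted p = 0.154). The genes of respiration under low oxygen include Cox4i2 and Ndufa4l2, which were tested because of their LC level. Of 10 tested, 6 were called lower and 2 higher, the latter being the kinase gene Pdk3 and the protease gene Lonp1. The others called lower, named after their values were seen, were Hilpda, Bnip3l, Higd1a and Mxi1. Their log2 fold changes were -2.45, -1.06, -0.77 and -0.70 (adjusted p = 0.000716, 0.00437, 0.0574 and 0.0833).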

How the data were processed

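RNA of 3 LC and 3 IP + LC tumors was made into barcoded 3′ libraries, with a UMI of 10 nucleotides on the oligo-dT primer. Per the submitters' processing notes and the study's methods, the authors used UMI-tools 1.1.1, Trim Galore 0.6.7 (reads under 20 nucleotides removed), HISAT2 2.2.1 on GRCm38 and featureCounts 2.0.1, and deposited UMI counts per gene without normalization. The annotation release, the use of strand and the treatment of reads with several matches are not given in the sources used here. Depth limits low genes, and 3 UMIs (1.75 to 5.17 CPM) were taken as the floor.

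Genes were kept by filterByExpr (minimum count 10, total 15) and compared with edgeR 4.0.16 in R 4.3.3 by TMM scaling and the quasi-likelihood test, without a block, with Benjamini-Hochberg adjustment over all tested genes and the study's limit of 0.1. An SE is that of the log2 fold change from the fit. Coordinates and transcript lengths (the longest principal transcript) came from GENCODE M21 on GRCm38. Near copies were found with blastn 2.17.0+ and promoters came from RefSeq. The procedure was tested on simulated data. The genes named followed a rule: all mitochondrial and complex II genes, central subunits, restricted forms with their common relatives, AA467197 and the largest calls. Values of 1 core subunit of complex I are not reported here, although it is included in the counts. The members and lists were chosen with earlier results of these data known. Replicate numbers did not pair the tumors (correlation of deviations 0.03, -0.12 and 0.11).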

Additional observations from a re-analysis of the deposited data

How the results depend on the processing

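The calls of mt-Co1, mt-Co2, mt-Co3, mt-Atp6 and the 6 restricted forms held in every alternative run that tested them, and with 10 UMIs required in every library only Cox6a2 of those forms was tested. Near-identical copies cover 99.6% to 100% of mt-Co1, mt-Co2, mt-Co3 and mt-Atp6, so their values are uncertain although their calls held. No such copy was found for mt-Nd1 and mt-Cytb, whose calls were less stable. The calls of mt-Nd1, mt-Nd2, mt-Nd4 and mt-Cytb were lost in 10, 1, 1 and 6 of 18 alternatives, and the uncalled mt-Nd5 and mt-Nd6 turned positive in 2 and 1. Library size scaling left 6 mitochondrial mRNAs called lower. Alternatives were DESeq2 size factors, upper quartile and library size scaling, scaling without mitochondrial RNA, other filters, DESeq2 1.42.0, limma voom 3.58.1, thinning to 592733 UMIs, a replicate block and each library left out. Removal of a trend with length, or with length and GC content, was added after seeing the data. Scaling by library size moved the median of all genes from 0.02 to 0.18 on the log2 scale.
Counts that moved by over 1.5 times were these. Nuclear members called higher went from 0 to 1 with library size scaling and with 10 UMIs required in every library (Atp5b in both), and to 4 after removal of length and of length and GC trends. Nuclear members called lower went from 25 to 15 without a filter. All genes called fell to 1014 higher and 1338 lower after thinning. With each library left out, all genes called ranged from 897 to 3324 higher and from 1368 to 3367 lower, nuclear members from 0 to 7 higher and from 11 to 32 lower, and mitochondrial members called lower from 4 to 10. The difference in the share of the mitochondrial mRNAs ranged from -1.98 to -1.22 percentage points, that of the nuclear members from -0.33 to 0.0716 and that of the log2 ratio from -0.85 to -0.31. The nuclear share of UMIs reversed without LC replicate 1, which the summed CPM after TMM did not, and Atp5e reversed as well, to a log2 fold change of 0.28 (adjusted p = 0.0921), within -0.24 to 0.28 over the libraries left out. A change of sign was counted as a reversal of a gene only where it passed the limit in either setting. With the replicate block, 20 nuclear and 6 mitochondrial members were called lower, and the causes of these moves were not tested. Of 792 list counts under alternatives, 643 stayed within 1.5 times and 149 moved. Depth limits mt-Nd3, mt-Nd4l, mt-Atp8, Cox7b2 and Cox8b, which had 0 to 27 UMIs in a library.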

Other observations

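Among genes for mitochondrial import and cristae, 2 of 28 tested were called higher and 3 lower by edgeR's quasi-likelihood test. Of all tested genes, 16.8% were called higher and 19.6% lower. Tomm70a, a receptor of the outer membrane translocase, and Timm17a, of the inner membrane translocase, had log2 fold changes of 0.82 and 0.52 (adjusted p = 0.0421 and 0.0608). The small translocase subunit Tomm7, the small carrier chaperone Timm8b and the cristae protein Chchd6 had -0.79, -0.69 and -0.59 (adjusted p = 0.0659, 0.0772 and 0.0493). Among the assembly factors, the calls were Timmdc1 (1.05), Ndufaf3 (-0.78), Nubpl (-0.85) and Tmem126b (-0.80) for complex I, Uqcc3 (-0.97) for complex III, and Sco1 (1.07), Surf1 (-0.81), Pet100 (-0.91), Higd1a (-0.77) and Higd2a (-0.75) for complex IV, as log2 fold changes. These genes were named after their values were seen.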
